A study of Oryza sativa with 11 samples.

Results

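Transcript levels in anthers of the rice mutant ostie1-1 were compared with those of the wild type (WT) at anther stage 12, from 2 ostie1-1 and 3 WT libraries of a series of 11. The comparison covered every locus of the deposited table. Of 55986 loci, 19644 reached 1 FPKM in at least 2 of these 5 libraries and were tested, and the other 36342 were not. FPKM are fragments per kilobase of transcript, scaled to the fragments of the library. Both genotypes of Oryza sativa were grown in the field and left untreated, and RNA was taken from picked anthers. The series names OsTIE1, a transcriptional repressor, in connection with anther dehiscence, male sterility and jasmonate (JA). The nature of the ostie1-1 allele and the cultivar are not given in the sources used here, and the level of OsTIE1 itself was not checked because its locus ID could not be established.

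At stage 12 of rice anther development pollen is close to maturity, the tapetum that fed it has broken down, and the anther is about to dry and open. JA is made from linolenic acid through allene oxide synthase and allene oxide cyclase. Its active conjugate brings JAZ repressors to the COI receptor for destruction, which releases transcription factors, and JAZ genes are themselves induced by JA. Auxin, gibberellin and ethylene also act in late stamens, and water and sugar movement accompany the drying of the anther wall. TIE proteins were described in Arabidopsis as partners of TCP transcription factors.

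The threshold for a call was a limma p below 0.05 after Benjamini-Hochberg adjustment over all tested loci. Of 19644 loci, 1772 (9.02%) passed, of which 1320 (6.72%) were higher in ostie1-1 and 452 (2.3%) lower. The median log2 fold change was 1.92 among the higher loci and -1.56 among the lower ones. All 1772 had groups that did not overlap, as had 9873 (50.3%) of all tested loci. On FPKM as deposited, both ostie1-1 libraries lay above all WT libraries in 17% of tested loci and below in 33.2%. The direction of calls depended on the scaling of the libraries. Higher loci made up 74.5% of calls with median-of-ratios factors, 59.7% with quantile normalization, 47.3% with FPKM as deposited and 37% with TPM. Against the median-of-ratios scale, on which the median log2 fold change of all tested loci was -0.01, that median was -0.24 with FPKM as deposited, -0.34 with TPM and -0.12 with quantile normalization.

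The mutant pair differed more than the WT libraries did, while the fit pools the spread of both genotypes. With the smaller group the more variable, the standard errors and p-values may be too small. The median absolute log2 difference was 0.521 between the ostie1-1 libraries, 0.33 to 0.354 between WT libraries, 0.536 to 0.579 between ostie1-1 replicate 1 and WT, and 0.685 to 0.728 between ostie1-1 replicate 2 and WT. Log2 levels correlated at 0.955 to 0.957 between WT libraries, at 0.908 between the ostie1-1 libraries and at 0.839 to 0.883 between genotypes. The first principal component (59.5% of the variance) separated the genotypes, and the second (20.9%) lay mainly between the mutant libraries. The 10 most abundant loci held 11.9% and 17.2% of the FPKM in ostie1-1, against 7.5% to 8.63% in WT. Calls depended on single libraries: 3028 loci (16.1%) passed without ostie1-1 replicate 1, 785 (4.14%) without ostie1-1 replicate 2, 499 (2.62%) without WT replicate 1, 104 (0.541%) without WT replicate 2 and 365 (1.89%) without WT replicate 3. Without an ostie1-1 library the mutant arm is 1 library, the spread comes from the 3 WT libraries alone, and the lone mutant library is assumed to vary like them. A fit to all 11 libraries, with both stages sharing one spread, called 751 loci, and the same fit without WT stage 10 replicate 3 called 3488. Of the 27 named genes below that passed, 10 kept their call with 11 libraries and 25 with 10 libraries.

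A few loci carried the largest differences. LOC_Os06g49190 stood at 167 and 160 FPKM in the ostie1-1 libraries and at 1.61, 1.50 and 1.37 FPKM in WT, a log2 fold change of 6.27 (standard error 0.28, adjusted p = 3.8e-04). LOC_Os09g22000 stood at 375 and 243 FPKM against 10.6, 4.55 and 12.3 FPKM, a log2 fold change of 5.26 (standard error 0.42, adjusted p = 0.00426). Both mutant values lay more than an order of magnitude above every WT value for these loci. In the other direction, LOC_Os10g05750 was listed at 0 in both ostie1-1 libraries and at 71.7, 26.9 and 16.3 FPKM in WT (adjusted p = 0.00512). LOC_Os08g34984 stood at 0.194 and 0.343 FPKM in ostie1-1 and at 36.5, 42.8 and 17.6 FPKM in WT, a log2 fold change of -4.46 (standard error 0.40, adjusted p = 0.00444). These 4 loci, on chromosomes 6, 9, 10 and 8, kept their calls without any 1 of the 5 libraries (with the spread from WT alone where the mutant arm was 1 library), and neither the table nor the reference gives them a name. Of 55986 loci, 33 stayed below 1 FPKM in all WT libraries and reached 5 FPKM in both ostie1-1 libraries. These 33 met the filter only through the ostie1-1 libraries. The opposite was seen for 6 loci, which had to reach 5 FPKM in 3 libraries rather than 2, so the 2 counts are not compared.

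Gene groups were read from lists of rice genes. Of 444 listed IDs, 260 had a name that the RefSeq gene table placed where the ID lies, and only these are described. Of them 157 were tested, 23 rose (14.6%) and 4 fell (2.55%), against the 6.72% and 2.3% of all tested loci. The lists were assembled with earlier results of these data known, so these shares are a description. Some rises met the filter only with the ostie1-1 libraries in which they are high. These were 413 of the 1320 higher loci, with ACS1, ACO1, RAB21 and HSP16.9A among the 23 members. Of all 19644 tested loci, 1505 needed the ostie1-1 libraries to meet it. The filter also let in loci low in the mutant: 808 tested loci had no ostie1-1 library at 1 FPKM, and 502 had no WT library at that level.

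**Figure D1:**
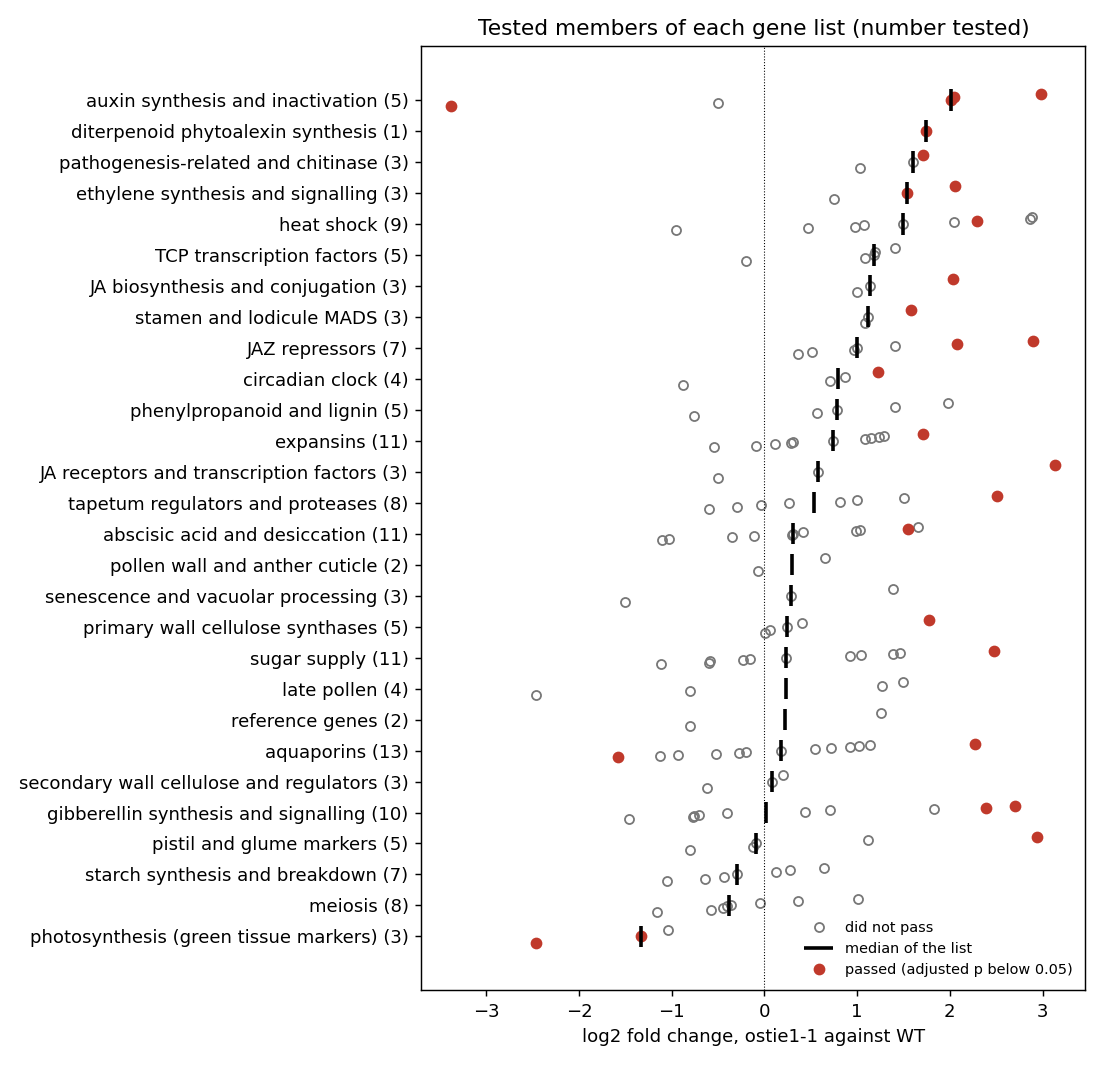
Log2 fold change of ostie1-1 against WT at stage 12 (x axis) for each tested list member (points), by list (y axis, number tested in brackets). Filled points passed at an adjusted p below 0.05, open points did not, and the vertical bar is the list's median, which runs from -1.34 for the photosynthesis genes to 2.02 for the auxin genes.

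Genes of JA synthesis and response included some of the clearest rises. AOS1 (LOC_Os03g55800, chromosome 3), which encodes allene oxide synthase, stood at 41.1 and 49.2 FPKM in ostie1-1 and at 12.5, 11.9 and 13.1 FPKM in WT. The groups were well separated and close within themselves, with a log2 fold change of 2.04 (standard error 0.30, adjusted p = 0.0118). AOC (LOC_Os03g32314), for allene oxide cyclase, the next enzyme, stood at 41.2 and 37.3 FPKM against 19.6, 26.5 and 18.2 FPKM. Its groups did not overlap, but its log2 fold change of 1.13 (standard error 0.30, adjusted p = 0.0533) did not pass. LOX2 (LOC_Os03g08220), a lipoxygenase gene, had a log2 fold change of 1.00 (standard error 0.34, adjusted p = 0.1001) at no more than 3.18 FPKM in any library. Of the 9 named genes of JA synthesis and conjugation 3 were tested, of which 1 rose, with a median log2 fold change of 1.13 against -0.01 over all tested loci. Over all 10 tested IDs of this list, unchecked ones included, 2 were higher. Of these 10, 7 had positive log2 fold changes, and the median was 1.07.

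Among the JAZ repressors 2 of 7 tested genes rose. JAZ10 (LOC_Os03g08330, chromosome 3) stood at 23.3 and 49.3 FPKM in ostie1-1 and at 7.14, 2.82 and 4.71 FPKM in WT, a log2 fold change of 2.90 (standard error 0.46, adjusted p = 0.0148). JAZ8 (LOC_Os09g26780, chromosome 9) stood at 13.5 and 17.5 FPKM against 5.49, 5.19 and 1.48 FPKM, a log2 fold change of 2.08 (standard error 0.45, adjusted p = 0.0322). The most abundant member behaved differently: JAZ9 (LOC_Os03g08310) stood at 1519 and 794 FPKM in ostie1-1 and at 816, 906 and 1104 FPKM in WT, so that the groups overlapped. The other 4 tested genes, JAZ2, JAZ11, JAZ12 and JAZ13, had overlapping groups and log2 fold changes of 0.36 to 1.41, and the median of the 7 was 1.00. JAZ9, JAZ10 and JAZ11 are neighbours by ID on chromosome 3, and only JAZ10 of them passed.

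Of 3 tested genes in the list of JA receptors and transcription factors, JAmyb rose. JAmyb (LOC_Os11g45740, chromosome 11), a MYB transcription factor gene named for its induction by JA, stood at 21.9 and 18.6 FPKM in ostie1-1 and at 1.12, 1.27 and 3.53 FPKM in WT. Its log2 fold change of 3.14 (standard error 0.43, adjusted p = 0.00985) was the highest among the list members that passed. The receptor gene COI1b (LOC_Os05g37690) had a log2 fold change of 0.58 (standard error 0.30, adjusted p = 0.231), and bHLH148 (LOC_Os03g53020), a transcription factor gene, one of -0.50 (standard error 0.66, adjusted p = 0.639). Left out one at a time, the libraries moved the adjusted p of AOS1 between 0.00944 and 0.0611 and that of JAmyb between 0.0133 and 0.0543, with both calls lost only without WT replicate 2. JAZ10 lost its call without WT replicate 2 or 3 (adjusted p up to 0.0632), and JAZ8 in every case but without ostie1-1 replicate 1 (up to 0.0999). JAZ8 was also lost with TPM (adjusted p = 0.0542), and AOS1 in the fit to all 11 libraries (adjusted p = 0.151).

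**Figure D2:**
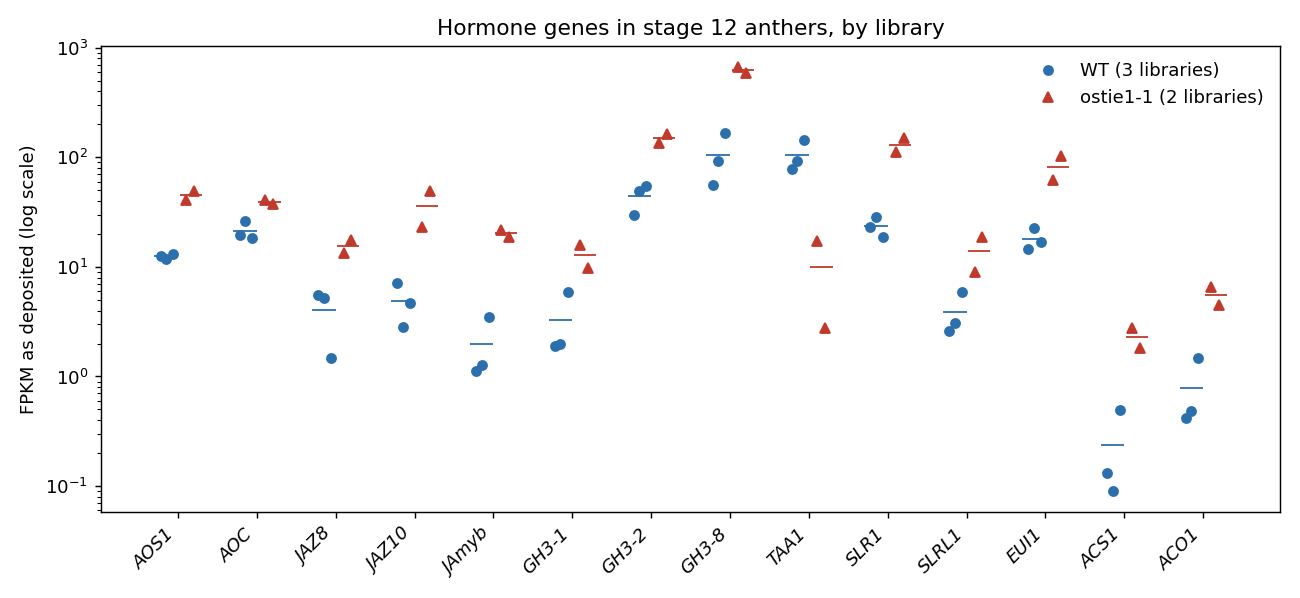
FPKM as deposited (y axis, log scale) of 14 hormone genes in each stage 12 library, with circles for the 3 WT libraries, triangles for the 2 ostie1-1 libraries and bars for group means. The 14 genes were chosen for display and all have groups apart, as had 50.3% of all tested loci. Of those shown TAA1 alone is lower in ostie1-1, and AOC and SLRL1 did not pass. Hormone genes with overlapping groups, such as JAZ9 and GID1, are not shown. Nor are CPS1, KS1, GA20ox2 and GA20ox3, which were lower in ostie1-1.

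None of the 5 tested TCP genes with a checked name passed with limma. Over all 13 tested TCP IDs on the list, unchecked ones included, 1 was higher and the median log2 fold change was 0.14, against 1.18 for these 5. PCF8 had the smallest adjusted p, with 6.26 and 3.89 FPKM in ostie1-1 and 2.22, 1.50 and 2.46 FPKM in WT (log2 fold change 1.18, standard error 0.33, adjusted p = 0.0639). PCF2, PCF5 and PCF6 had log2 fold changes of 1.41, 1.19 and 1.09 and PCF1 one of -0.20, and the groups of PCF2, PCF6 and PCF8 did not overlap. PCF8 passed in the fit to 10 libraries (adjusted p = 0.0306). NH1 (LOC_Os01g09800, chromosome 1), the rice counterpart of Arabidopsis NPR1 in salicylic acid signalling, rose from 8.95, 12.2 and 12.1 FPKM to 35.5 and 28.0 FPKM, a log2 fold change of 1.71 (standard error 0.32, adjusted p = 0.0221). CPS2 (LOC_Os02g36210, chromosome 2), whose product starts diterpenoid phytoalexin synthesis, stood at 7.75 and 2.88 FPKM against 1.50, 0.468 and 1.11 FPKM. It passed with a log2 fold change of 1.74 (standard error 0.41, adjusted p = 0.0383), was lost with FPKM as deposited (adjusted p = 0.0597) and TPM (0.0610), and was the only 1 of 12 named phytoalexin genes to be tested. PBZ1 (LOC_Os12g36880), a pathogenesis-related gene, had a log2 fold change of 1.60 (standard error 0.46, adjusted p = 0.0664), and the chitinase gene CHT1 (LOC_Os06g51060) had overlapping groups. None of the 4 named WRKY genes and none of the 5 named genes of the respiratory burst and peroxide scavenging reached the level for testing. With single libraries left out, the adjusted p reached 0.0801 for NH1, whose call was lost without any 1 of the WT libraries, and 0.134 for CPS2, whose call was kept only without ostie1-1 replicate 2.

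The 3 tested GH3 genes, whose enzymes join auxin to amino acids and so take it out of the active pool, all rose. GH3-8 (LOC_Os07g40290, chromosome 7) stood at 665 and 590 FPKM in ostie1-1 and at 56.4, 92.2 and 166 FPKM in WT, a log2 fold change of 2.99 (standard error 0.51, adjusted p = 0.0178). GH3-2 (LOC_Os01g55940, chromosome 1) stood at 136 and 163 FPKM against 29.6, 49.3 and 54.5 FPKM, a log2 fold change of 2.05 (standard error 0.40, adjusted p = 0.0245). Both mutant libraries exceeded every WT library by more than the range within WT. GH3-1 (LOC_Os01g57610, chromosome 1) stood at 15.9 and 9.79 FPKM against 1.88, 1.98 and 5.95 FPKM and passed at a log2 fold change of 2.02 (standard error 0.48, adjusted p = 0.0416). That call was lost with FPKM as deposited (adjusted p = 0.0512), TPM (0.0523) and quantile normalization (0.0524).

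TAA1 (LOC_Os01g07500, chromosome 1), for the aminotransferase that turns tryptophan into the auxin precursor, fell. It stood at 17.1 and 2.79 FPKM in ostie1-1 and at 78.5, 92.5 and 144 FPKM in WT, a log2 fold change of -3.38 (standard error 0.61, adjusted p = 0.0207). Every WT value was more than 4 times the higher mutant value, and the mutant libraries themselves differed by about 6 times. DAO (LOC_Os04g39980), for an auxin-oxidising enzyme, had overlapping groups and a log2 fold change of -0.50 (standard error 0.46, adjusted p = 0.492). The 5 tested auxin genes gave 3 rises, 1 fall and 1 without a call, and over all 8 tested auxin IDs on the list, unchecked ones included, 4 were higher and 1 lower. GH3-8 lost its call without WT replicate 2 (adjusted p = 0.0816). TAA1 lost its call without WT replicate 2 or 3 (adjusted p up to 0.0785), while GH3-2 kept it only without ostie1-1 replicate 1 (up to 0.0883) and GH3-1 only without WT replicate 3 (up to 0.140). With all 11 libraries the adjusted p was 0.213 for GH3-8, 0.157 for GH3-2, 0.238 for GH3-1 and 0.0561 for TAA1.

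In the gibberellin list 2 of 10 tested genes rose, one in signalling and one in inactivation. SLR1 (LOC_Os03g49990, chromosome 3), the DELLA repressor of gibberellin responses, stood at 112 and 149 FPKM in ostie1-1 and at 23.3, 28.6 and 18.9 FPKM in WT. Its log2 fold change was 2.70 (standard error 0.32, adjusted p = 0.00774), and it was the only 1 of the 27 named genes that passed whichever single stage 12 library was left out (adjusted p at most 0.0457), with the spread from WT alone in the fits to 1 mutant library. SLRL1 (LOC_Os01g45860), an SLR1-like gene, stood at 8.98 and 18.7 FPKM against 2.61, 3.07 and 5.92 FPKM, a log2 fold change of 1.83 (standard error 0.48, adjusted p = 0.0551) that did not pass. EUI1 (LOC_Os05g40384, chromosome 5), a cytochrome P450 that inactivates gibberellins, stood at 62.3 and 102 FPKM against 14.4, 22.7 and 16.8 FPKM, a log2 fold change of 2.39 (standard error 0.38, adjusted p = 0.0149).

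None of the tested gibberellin synthesis genes with a checked name passed with limma. Over all 14 tested gibberellin IDs on the list, unchecked ones included, 3 were higher. Their median log2 fold change was 0.57, against 0.02 for the 10 with a checked name. The early enzyme genes CPS1, KS1 and KAO had log2 fold changes of -1.46, -0.71 and -0.41, and the 20-oxidase genes GA20ox2 and GA20ox3 had -0.77 and -0.76. In 4 of the 10 tested genes of the list, CPS1, KS1, GA20ox2 and GA20ox3, both mutant libraries lay below all WT libraries as deposited. That order held for 33.2% of all tested loci, so the count is not read as a result. The adjusted p of the synthesis genes ran from 0.115 for CPS1 to 0.579 for KAO. GA20ox3 (LOC_Os07g07420) was abundant, at 912 and 490 FPKM in ostie1-1 and 1115, 1389 and 1693 FPKM in WT. The receptor gene GID1 and the F-box gene GID2 had overlapping groups and log2 fold changes of 0.44 and 0.71. EUI1 lost its call without any 1 of the WT libraries (adjusted p up to 0.0567), and with all 11 libraries neither SLR1 (adjusted p = 0.148) nor EUI1 (0.0858) passed.

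Genes of ethylene synthesis were low in WT. ACS1 (LOC_Os03g51740, chromosome 3), for the synthase of the ethylene precursor, stood at 2.79 and 1.84 FPKM in ostie1-1 and at 0.133, 0.0900 and 0.493 FPKM in WT (log2 fold change 1.53, standard error 0.30, adjusted p = 0.0249). ACO1 (LOC_Os09g27820, chromosome 9), for the oxidase that makes ethylene, stood at 6.50 and 4.51 FPKM against 0.419, 0.486 and 1.47 FPKM (log2 fold change 2.06, standard error 0.37, adjusted p = 0.0199). Both passed, but each met the filter only with the ostie1-1 libraries, so their number is not read as support. At such levels the pseudocount of 1 makes the log2 fold change smaller than the ratio of the FPKM. EIL1 (LOC_Os03g20790), a transcription factor of ethylene signalling, had overlapping groups, and none of the 4 named receptor genes (ERS1, ERS2, ETR2, ETR3) was tested. Of 11 tested genes of abscisic acid and desiccation 1 passed, which also met the filter only with the ostie1-1 libraries: the dehydrin gene RAB21 (LOC_Os11g26790, chromosome 11), with 3.11 and 1.29 FPKM in ostie1-1 and 0.362, 0.0736 and 0 FPKM in WT (log2 fold change 1.55, standard error 0.33, adjusted p = 0.0291). The other 10 had log2 fold changes of -1.11 to 1.66. They include NCED3 (LOC_Os03g44380), for the enzyme of abscisic acid synthesis, at 5.46 and 5.24 FPKM against 6.09, 0.166 and 0.546 FPKM, with WT replicate 1 above both mutants. ACS1 and RAB21 lost their calls without any 1 of the WT libraries (adjusted p up to 0.106 and 0.112) and were not tested with a single mutant library, and ACO1 lost its call without WT replicate 1 or 2 (up to 0.0893). With all 11 libraries RAB21 (adjusted p = 0.389) and ACO1 (0.0541) did not pass.

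Few sugar and water transport genes passed in the fit to the 5 libraries. SWEET15 (LOC_Os02g30910, chromosome 2), a sucrose exporter gene, rose from 16.25, 32.1 and 16.56 FPKM in WT to 114 and 84.4 FPKM in ostie1-1, a log2 fold change of 2.48 (standard error 0.37, adjusted p = 0.0128). SWEET11 (LOC_Os08g42350), another sucrose exporter gene, stood at 133 and 76.6 FPKM in ostie1-1 and 218, 282 and 310 FPKM in WT. Its log2 fold change of -1.11 (standard error 0.37, adjusted p = 0.0970) did not pass although the groups were apart. SWEET4, SWEET5 and SWEET14 had log2 fold changes of 1.39, 1.46 and 0.92 without passing, and the 11 tested genes of sugar supply had a median of 0.23. Of these 11, 1 was higher and 1 lower with FPKM as deposited, TPM or quantile normalization. In the fit to 10 libraries 3 were higher and 1 lower.

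Of 13 tested aquaporin genes, the tonoplast gene TIP2;1 (LOC_Os02g44080, chromosome 2) rose and the plasma membrane gene PIP1;3 (LOC_Os02g57720, chromosome 2) fell. TIP2;1 stood at 15.8 and 3.57 FPKM in ostie1-1 and at 1.03, 0.646 and 1.62 FPKM in WT (log2 fold change 2.27, standard error 0.52, adjusted p = 0.0370). PIP1;3 stood at 16.4 and 5.76 FPKM against 41.4, 31.8 and 41.3 FPKM (log2 fold change -1.58, standard error 0.40, adjusted p = 0.0475). The most abundant aquaporin gene, TIP1;2 (LOC_Os01g74450), stood at 1176 and 1691 FPKM against 563, 1124 and 751 FPKM and did not pass (adjusted p = 0.195). SWEET15 lost its call without WT replicate 3 (adjusted p = 0.0559), TIP2;1 kept it only without ostie1-1 replicate 2 (up to 0.130) and PIP1;3 only without ostie1-1 replicate 1 (up to 0.143). With all 11 libraries the adjusted p was 0.0792 for both SWEET15 and PIP1;3.

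Wall and starch genes held 2 calls. CESA5 (LOC_Os03g62090, chromosome 3), a primary wall cellulose synthase gene, stood at 7.69 and 11.1 FPKM in ostie1-1 and at 4.07, 2.34 and 1.62 FPKM in WT (log2 fold change 1.78, standard error 0.38, adjusted p = 0.0305). The other 4 tested primary wall synthase genes had log2 fold changes of 0.01 to 0.41, and the 3 secondary wall synthase genes had 0.20, 0.08 and -0.61, the last for CESA9, with no call. EXPA4 (LOC_Os05g39990, chromosome 5), an expansin gene of wall loosening, stood at 205 and 76.7 FPKM against 58.0, 51.7 and 32.4 FPKM (log2 fold change 1.71, standard error 0.41, adjusted p = 0.0416). The other 10 tested expansin genes did not pass, with log2 fold changes of -0.55 to 1.29. Among 7 starch genes the soluble synthase gene SSII-1 (LOC_Os10g30156) stood at 8.78 and 6.18 FPKM against 21.3, 22.5 and 16.2 FPKM, a log2 fold change of -1.05 (standard error 0.29, adjusted p = 0.0625). It passed as lower with FPKM as deposited (adjusted p = 0.0416), TPM (0.0338) and quantile normalization (0.0470). CESA5 was lost with TPM (adjusted p = 0.0546), and EXPA4 with FPKM as deposited (0.0746), TPM (0.0822), quantile normalization (0.0643) and all 11 libraries (0.161). CESA5 kept its call only without ostie1-1 replicate 1 (up to 0.112) and EXPA4 only without ostie1-1 replicate 2 (up to 0.129).

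**Figure D3:**
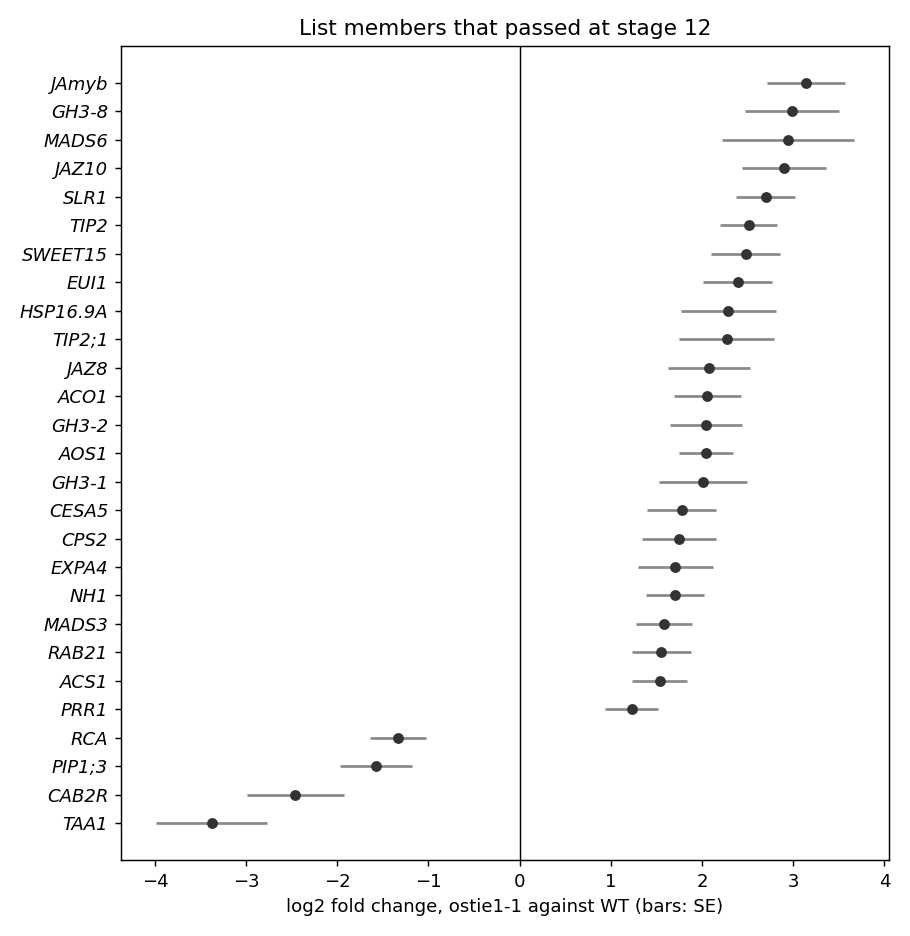
Log2 fold change of ostie1-1 against WT at stage 12 (x axis, bars are the SE from limma) for the 27 list members that passed (y axis), from 5 libraries. The 23 rises run from 1.23 for PRR1 to 3.14 for JAmyb, and the 4 falls from -1.34 for RCA to -3.38 for TAA1.

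The anther cell types were then examined through their marker genes. In whole anthers fewer cells of a type and less RNA per cell cannot be told apart. TIP2 (LOC_Os01g18870, chromosome 1), a bHLH transcription factor gene also called bHLH142 that acts early in tapetum differentiation, stood at 18.4 and 19.2 FPKM in ostie1-1 and at 4.03, 2.89 and 2.59 FPKM in WT. It rose with a log2 fold change of 2.51 (standard error 0.31, adjusted p = 0.00814) and lost its call only without WT replicate 2 (adjusted p = 0.0516) and with all 11 libraries (0.139). TDR (LOC_Os02g02820), its bHLH partner in the tapetum, stood at 159 and 154 FPKM against 92.2, 117 and 27.0 FPKM and did not pass (log2 fold change 1.50, standard error 0.54, adjusted p = 0.113). EAT1 (LOC_Os04g51070), a bHLH gene tied to tapetum cell death, had overlapping groups, as had PTC1, AP37, CP1 and TDL1A, and UDT1 had a log2 fold change of -0.30. Thus 1 of 8 tested tapetum regulators and proteases rose.

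The 6 tapetum markers summed to 1184 and 1283 FPKM in ostie1-1 and to 2004, 1064 and 329 FPKM in WT, with none at 0 in any library. WT replicate 3 was the lowest. Most of the sum came from C6 (LOC_Os11g37280), a lipid transfer protein gene, at 985 and 1020 FPKM in ostie1-1 and 1842, 893 and 281 FPKM in WT. The 3 mature pollen markers with a checked name (EXPB10, TIP5;1 and HXK10) summed to 79.9 and 54.9 FPKM in ostie1-1 and 113, 45.7 and 304 FPKM in WT. None was at 0, WT replicate 3 was the highest, and most of its sum came from EXPB10. The other planned pollen markers had no checked name. Over all 13 tested late pollen IDs, unchecked ones included, none passed, 9 had positive log2 fold changes and the median was 0.42. EXPB10 (LOC_Os03g01650), a pollen beta-expansin gene, stood at 5.94 and 16.0 FPKM in ostie1-1 and at 78.8, 18.2 and 246 FPKM in WT. Its log2 fold change of -2.46 (standard error 0.97, adjusted p = 0.137) did not pass, with WT values more than 13 times apart. HXK10 (LOC_Os05g31110), an anther hexokinase gene, had a log2 fold change of -0.81 (standard error 0.31, adjusted p = 0.131), while TIP5;1 and EXPB9 had values of 1.49 and 1.27 with overlapping groups. The pollen markers did not vary alike in WT: TIP5;1 stood at 15.83, 10.65 and 40.04 FPKM and HXK10 at 18.22, 16.85 and 18.35 FPKM. The part that the differing pollen and tapetum marker sums of the WT libraries have in the calls was not tested, beyond the values without WT replicate 3.

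**Figure D4:**
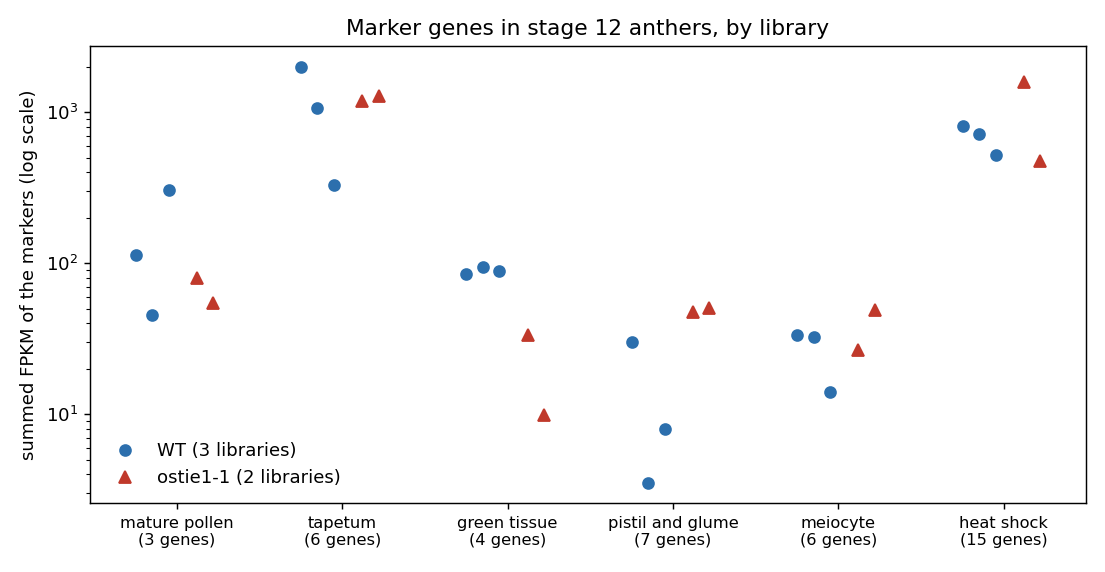
Summed FPKM of marker genes (y axis, log scale) for 5 cell types and for heat shock genes (x axis, number of genes in brackets), with circles for the 3 WT and triangles for the 2 ostie1-1 libraries. Green tissue markers are lower in both ostie1-1 libraries, at 33.5 and 9.90 FPKM, than in WT, at 84.3 to 94.5 FPKM. The pistil and glume sum is higher, but in ostie1-1 it is nearly all MADS6, with 5 of the 7 genes at 0. The other sums overlap.

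Of 3 tested green tissue genes 2 fell. CAB2R (LOC_Os01g41710, chromosome 1), for a chlorophyll-binding protein, stood at 18.2 and 3.41 FPKM in ostie1-1 and at 57.1, 68.7 and 53.7 FPKM in WT (log2 fold change -2.46, standard error 0.53, adjusted p = 0.0317). RCA (LOC_Os11g47970, chromosome 11), for Rubisco activase, stood at 5.52 and 5.18 FPKM against 17.1, 16.8 and 20.6 FPKM (log2 fold change -1.34, standard error 0.31, adjusted p = 0.0375). Over all 10 tested green tissue IDs on the list, unchecked ones included, 7 fell. CAB1R (LOC_Os09g17740) had overlapping groups and did not pass, and RCABP89 was listed at 0 in all 5 libraries. Both calls were kept without ostie1-1 replicate 1 and lost without any other single library (adjusted p up to 0.113 for CAB2R and 0.127 for RCA) and with all 11 libraries (0.302 and 0.439).

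Among floral organ identity genes 2 rose. MADS3 (LOC_Os01g10504, chromosome 1), a C-class gene of stamen identity, stood at 97.7 and 87.2 FPKM in ostie1-1 and at 37.8, 30.2 and 43.6 FPKM in WT (log2 fold change 1.58, standard error 0.30, adjusted p = 0.0236). MADS58 and MADS4, the other 2 tested stamen and lodicule genes, had log2 fold changes of 1.12 and 1.08 without passing. MADS6 (LOC_Os02g45770, chromosome 2), an AGL6-like gene used here as a marker of pistil and glume, stood at 45.1 and 50.1 FPKM against 22.2, 1.69 and 5.95 FPKM (log2 fold change 2.94, standard error 0.73, adjusted p = 0.0452), with WT replicate 1 well above the other WT libraries. Of 5 tested genes on the longer pistil and glume list, MADS6 alone passed, 2 had positive log2 fold changes and the median was -0.09. The 7 pistil and glume markers summed to 47.3 and 50.6 FPKM in ostie1-1 and 30.0, 3.52 and 7.94 FPKM in WT, and MADS6 made up nearly all of it in ostie1-1. Of these 7, 5 were at 0 in every library but WT replicate 1, where 4 were. The MADS6 call was lost with FPKM as deposited (adjusted p = 0.0577), TPM (0.0584) and quantile normalization (0.0540), and was kept only without WT replicate 1 among the left-out libraries (up to 0.131). MADS3 kept its call only without ostie1-1 replicate 1 (up to 0.105).

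Several heat shock genes were high in WT replicate 1 as well as in the mutant. HSP16.9A (LOC_Os01g04370, chromosome 1), a small heat shock protein gene in a cluster of near copies, stood at 2.82 and 8.27 FPKM in ostie1-1 and at 1.44, 0 and 0.0953 FPKM in WT, and was the only 1 of 9 tested genes to pass, having met the filter only with the ostie1-1 libraries (log2 fold change 2.29, standard error 0.52, adjusted p = 0.0366). HSP18.1 (LOC_Os03g16030) stood at 45.4 and 51.4 FPKM in ostie1-1 and at 49.7, 2.36 and 2.07 FPKM in WT, where replicate 1 matched the mutants. HSP17.7, HSP17.4, HSP26.7 and HSP101 likewise had their highest WT value in replicate 1, and the median of the list was 1.49. Reads shared between near copies could have been split or dropped in the counting, so the values of these genes are uncertain. The clock gene PRR1 (LOC_Os02g40510, chromosome 2) stood at 30.2 and 30.2 FPKM against 16.2, 18.0 and 11.8 FPKM (log2 fold change 1.23, standard error 0.29, adjusted p = 0.0407), the only 1 of 4 tested clock genes to pass. It was lost with FPKM as deposited (adjusted p = 0.0749) and TPM (0.0937). HSP16.9A and PRR1 were kept only without ostie1-1 replicate 1 (up to 0.137 and 0.130), and HSP16.9A was lost with all 11 libraries (0.0784).

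None of the 8 tested meiosis genes passed with limma, with log2 fold changes of -1.16 for MER3 to 1.01 for MEL1, and the 6 meiocyte markers summed to 26.5 and 49.0 FPKM in ostie1-1 and 14.1 to 33.7 FPKM in WT. Neither reference gene passed: ACT1 (LOC_Os03g50885) stood at 1459 and 2078 FPKM in ostie1-1 and 787, 831 and 1068 FPKM in WT, with groups apart (log2 fold change 1.26, standard error 0.50, adjusted p = 0.142). GAPDH (LOC_Os04g40950) stayed below 2 FPKM in all 5 libraries. The 3 tested senescence genes had log2 fold changes of -1.50 for VPE1, 1.38 for SGR and 0.28 for NAC5, without a call.

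Called loci lay on all 12 chromosomes. Higher loci made up 5.24% (chromosome 12) to 8.1% (chromosome 1) of the tested loci of a chromosome, and lower loci 1.59% (chromosome 2) to 3.16% (chromosome 7). Runs of at least 3 tested loci, neighbouring in ID order and called in the same direction, numbered 18, of which 16 were higher and 2 lower. The longest held 6 loci from LOC_Os04g59050 to LOC_Os04g59190, with log2 fold changes of 1.18 to 4.48, and the next 4 loci from LOC_Os04g48950 to LOC_Os04g49110, with 1.36 to 2.62. Of the runs of 3, the first in ID order spanned LOC_Os01g16450 to LOC_Os01g16470, with 1.57 to 4.44.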

How the data were processed

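Messenger RNA of whole rice anthers was sequenced by the authors, and the deposited table gives FPKM per transcript model for 11 libraries. Per the submitters' processing notes, HISAT2 2.2.0, featureCounts and the IRGSP-1.0 genome were used. The step from counts to FPKM, strand handling, filters and multi-mapping rules are not given in the sources used here. The 5 stage 12 libraries were used, 2 ostie1-1 and 3 WT, grouped by the labels.

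FPKM were summed per locus (66338 models, 55986 loci). Loci with FPKM of at least 1 in at least 2 of the 5 libraries were kept, divided by median-of-ratios factors (0.837 to 1.22) and transformed as log2(FPKM + 1). Factors above 1 belong to the WT libraries. The test was limma 3.58.1 in R 4.3.3 with trended empirical Bayes variance and Benjamini-Hochberg adjustment over all tested loci. It was checked on simulated data in which both genotypes had the same spread, so that check does not cover their unlike spread. Fold changes are on the log2(FPKM + 1) scale, with SE, and understate changes of low loci. Printed FPKM are as deposited. With 2 against 3 libraries an exact permutation test of 1 gene cannot go below p = 0.1. The labels number biological replicates without naming separate plants, so p-values measure the spread between these libraries.

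Absolute depth is unknown. From the commonest ratio of values below 0.3 FPKM, depths were 0.913 to 1.16 relative to WT replicate 3, and no counting error is given. Loci that have several models were tested less often (1092 of 6457, 16.9%) than loci with 1 model (18552 of 49529, 37.5%), so an untested gene is not read as absent.

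The comparison and the 31 gene lists (444 IDs) were chosen with earlier results of these data known. A name was used where the RefSeq table (ASM3414082v1), which holds no LOC_Os IDs, had it on the ID's chromosome within 1 Mb of the place given by the other matched genes (median distance 0.018 Mb), or, for 24 names beyond the outermost matched gene of a chromosome (CAB1R and RCA among them), in the right order only. This check cannot tell tandem copies apart. Restricting the lists to these 260 names, and the synonyms used for 30 of them, were decided after values were seen. Of the other 184 IDs, 103 were tested, 16 were higher and 6 lower, and they are not described. No Bowman-Birk inhibitor had a checked name. Genes named are, per list, up to 5 (JA, TCP, phytoalexin) or 3 members per direction with the smallest adjusted p, or the best member where none passed, with values for others given as context and chosen after they were seen. The 2 largest rises and falls among loci of at least 5 FPKM in the higher group, and the 3 longest runs, were also named. Alternatives changed the scaling, pseudocount, filter, libraries, variance model and locus summary. A gene that the rule names is not reported here. No sequences are printed.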

Additional observations from a re-analysis of the deposited data

How the results depend on the processing

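All 1772 calls kept their direction under every alternative in which they were tested. As all had groups apart and an absolute log2 fold change of at least 1, this was largely set by their selection. The number of calls depended on the processing, and the causes were not tested. The number of lower calls was 452 under median-of-ratios scaling, 1128 with FPKM as deposited, 1644 with TPM and 794 with quantile normalization. Without a filter 318 loci passed (299 higher, 19 lower) of 36585 tested. All 11 libraries gave 751 (687 higher, 64 lower), and 10 libraries without WT stage 10 replicate 3 gave 3488 (2301 higher, 1187 lower). With a replicate block on the numbers 1 and 2 that the genotypes share, 909 passed (792 higher, 117 lower). The labels do not say that these numbers pair the samples, and deviations from the group means correlated at -0.017 and 0.119. Leaving out 1 stage 12 library gave 104 to 3028 calls, 93 to 1774 higher and 11 to 1254 lower, with fewer libraries in each fit. A pseudocount of 0.1, a minimum of 5 FPKM, robust or untrended variance and the highest transcript model kept the total within 1.5 times. Among the genes named by rule, C6, which did not pass, had log2 fold changes of -0.014 to 1.20 with single libraries left out, below 0 only without WT replicate 3, and -0.0046 with the replicate block. Of the 27 members that passed, 22 kept their call with FPKM as deposited, 20 with TPM, 24 with quantile normalization, 21 with a pseudocount of 0.1, and 16 with the replicate block. Only 3 kept it without a filter, 9 without WT replicate 1, 2 without WT replicate 2 and 7 without WT replicate 3.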
